A study of Mus musculus with 4 samples.

Results

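The genes described here are 36 mouse genes of the integrated stress response, of amino acid supply and of tRNA charging, taken by symbol from the 27179 genes of the deposited count table. They comprise 18 cytosolic aminoacyl-tRNA synthetases, 8 enzymes of amino acid synthesis and one-carbon metabolism, 3 amino acid transporter subunits, Atf4 with 4 other stress factors or modulators, and 2 inhibitors of the kinase complex mTORC1. The 36 genes were matched by symbol alone, but the set was chosen with earlier results of these data known. Each of the 36 passed the filter on low counts, as did 11706 genes in all.

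The cells were plasmacytoid dendritic cells (pDCs) cultured for 8 days from C57BL/6 bone marrow with Flt3 ligand. The groups differ in BFP, a blue fluorescent reporter of Cxcl10, a chemokine gene induced by interferons, and both received imiquimod, an agonist of the RNA sensor Tlr7, at 1 µg/ml over 24 h, so no unstimulated cells enter the comparison. After a sort on SiglecH and CD11b, each of the BFP-positive and BFP-negative fractions gave 2 libraries. How the reporter was built, where the gates lay and which mice gave the marrow are not given in the sources used here. In the titles each replicate number comes with a code of its own, carried by 1 BFP-negative and 1 BFP-positive library. What the code stands for (mouse, culture or day) is not stated, so p-values measure the spread between these libraries, which may be technical. The labels also conflict on the BFP-negative cells, which the population field calls CXCL10-positive and the series' design text CXCL10-negative, so only BFP was used to group the libraries.

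When amino acids run short or the endoplasmic reticulum is under strain, kinases phosphorylate the initiation factor eIF2, general translation falls, and the messenger of the transcription factor Atf4 is translated more. Atf4 pairs with C/EBP or AP-1 family partners and binds C/EBP-ATF response elements near genes for amino acid import, for serine, proline and asparagine synthesis, and for the synthetases that load tRNAs. Because Atf4 is controlled largely at translation, its messenger level is an incomplete measure of its activity. pDCs are secretory cells known for large amounts of type I interferon after Tlr7 or Tlr9 signals.

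The promoters show which of the 36 genes carry the letters of such an element near the start site. RefSeq promoters (GRCm38.p6, 250 bases before to 50 bases after the start) were at hand for 28 of the 36 genes, and the letters TGATGNAA were searched on both strands. They were present in 10 of 28 genes (35.7%), namely Aars, Asns, Chac1, Gars, Iars, Pycr1, Slc7a11, Tars, Trib3 and Yars, against 4.51% of 27025 genes with a promoter of the same length (3.97% of 32851 promoters). The set was made in part of genes known as Atf4 targets, so its higher share is not an independent result. A match is a run of letters and not a measured binding site. Of the genes lower in BFP-positive cells, Pycr1 and Yars carry the letters. Eprs, Sars, Phgdh, Psph, Shmt2 and Slc3a2, also lower, do not carry them in the promoter searched, and for Lars no promoter was at hand. For Slc3a2 and Eprs the promoter searched lay inside the gene's span, downstream of its outermost start. Start sites without a promoter entry and more distant sequence were not searched. The other genes with the letters were not called. Whether the letters go with the falls was not tested. These 5 stretches are shown because they cover genes that fell (Pycr1, Yars), genes without a call (Asns, Chac1) and 1 of the 2 promoters with a pair of matches (Slc7a11; the other is that of Aars). Each runs 5′ to 3′ in the direction of the gene, with the match on either strand in capitals.
Pycr1, chr11:120643814-120643881, minus strand: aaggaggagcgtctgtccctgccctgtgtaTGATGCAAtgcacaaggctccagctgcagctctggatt
Yars, chr4:129189876-129189932, plus strand: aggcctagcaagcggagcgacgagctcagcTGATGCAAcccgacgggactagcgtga
Asns, chr6:7693195-7693262, minus strand: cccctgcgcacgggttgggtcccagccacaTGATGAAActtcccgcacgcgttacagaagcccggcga
Chac1, chr2:119351019-119351086, plus strand: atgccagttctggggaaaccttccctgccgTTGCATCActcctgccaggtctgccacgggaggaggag
Slc7a11, chr3:50443642-50443709, minus strand: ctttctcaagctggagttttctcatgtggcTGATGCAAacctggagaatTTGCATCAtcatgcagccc

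Among the 36 genes, 9 were lower in BFP-positive cells, none was higher and 27 were not called, by edgeR's quasi-likelihood test at an adjusted p of 0.05. The genes that fell were the synthetases Lars, Eprs, Yars and Sars, the enzymes Phgdh, Psph, Shmt2 and Pycr1, and the transporter subunit Slc3a2. That is 25.0% of the 36, where 3.51% of all 11706 tested genes were lower and 7.6% were higher. Phgdh, Psph, Shmt2 and Lars were called lower under every alternative run, while each of the other 5 lost the call in at least 1 of them. limma-voom and DESeq2 also called none of the 36 higher, and the 19 genes with an unadjusted p under 0.05 in edgeR all had estimates below 0. Over all tested genes, 24.53% had an unadjusted p under 0.05.

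The log2 fold change of BFP-positive over BFP-negative cells was below 0 for 35 of the 36 genes and had a median of -0.46, against -0.02 over all tested genes, of which 51.81% were below 0. Most of these differences were under 2-fold, and 3 genes, Lars, Pycr1 and Phgdh, were lower by 2-fold or more. Both BFP-negative libraries lay above both BFP-positive libraries for 29 genes (80.56%, against 27.1% of all tested genes). The opposite order held for 1 gene, Sesn2, where 27.1% of all tested genes had it. Summed over the 36 genes, the libraries held 4525 and 4669 CPM (counts scaled to the library total with TMM factors) in the BFP-negative group and 3218 and 3614 CPM in the BFP-positive ones.

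**Figure D1:**
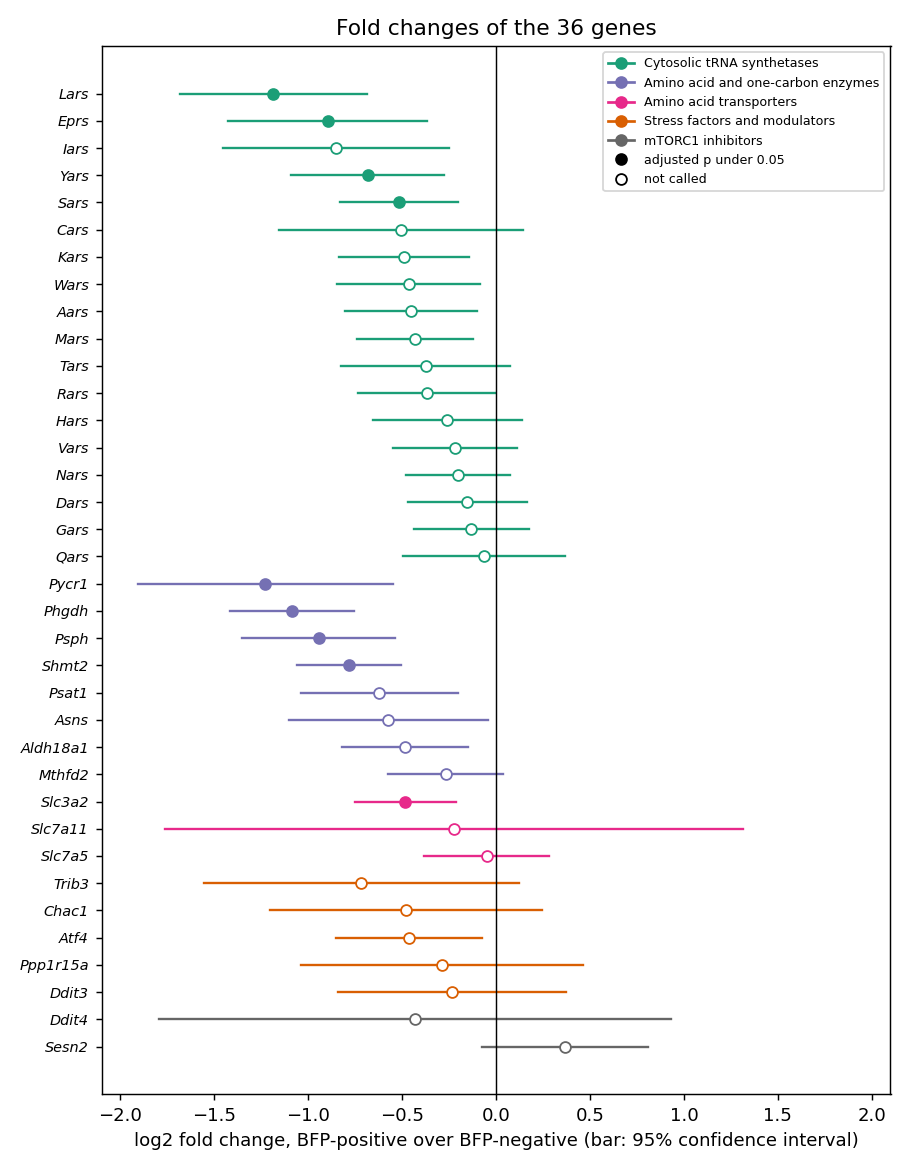
Log2 fold change of BFP-positive over BFP-negative cells for each of the 36 genes, by role, with bars for the 95% confidence interval of the edgeR fit on 2 libraries per group. Filled points passed an adjusted p of 0.05; 35 of the 36 points lie below 0 and Sesn2 lies above it.

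Cytosolic synthetases join each amino acid to its tRNA, and each is named for its amino acid. All 18 had estimates below 0 with a median of -0.44, and 4 fell (1 or 2 when either BFP-positive library was left out). Their summed level was 2474 and 2499 CPM in the BFP-negative libraries and 1819 and 2082 CPM in the BFP-positive ones. Both BFP-negative libraries lay above both BFP-positive libraries for 15 of the 18, against 27.1% of all tested genes. The groups overlapped for Dars, Qars and Vars.

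Lars, the leucine enzyme, is also known to take part in leucine sensing by mTORC1. It stood at 60.2 and 52.5 CPM in BFP-negative replicates 1 and 2, and at 21.1 and 28.4 CPM in BFP-positive replicates 1 and 2. Both BFP-positive libraries were below both others, and the log2 fold change of -1.19 (SE 0.22) had an adjusted p of 0.00751. Without any one library in turn, the value ranged from -1.41 to -0.99 and the call was kept.

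Eprs loads glutamate and proline with one protein. Its levels were 69.3 and 44.9 CPM in BFP-negative cells and 30.5 and 30.8 CPM in BFP-positive cells. The BFP-negative replicates differed more from each other than the BFP-positive ones, and the log2 fold change was -0.90 (SE 0.24) at an adjusted p of 0.0373. Omission of the higher BFP-negative library, replicate 1, gave -0.55 with an adjusted p of 0.238, and omission of either BFP-positive library also ended the call (0.075 and 0.0796).

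Yars, the tyrosine enzyme, stood at 116.8 and 91.8 CPM in BFP-negative cells and at 59.4 and 70.5 CPM in BFP-positive cells. The groups were apart, and the log2 fold change of -0.68 (SE 0.18) had an adjusted p of 0.0394. Removal of replicate 1 of the BFP-negative group (0.177) or of replicate 1 or 2 of the BFP-positive group (0.19 and 0.0531) raised the adjusted p above the threshold. Sars, the serine enzyme, was at 215 and 239 CPM against 146 and 171 CPM, which is -0.52 on the log2 scale (SE 0.14) at an adjusted p of 0.0423. Here removal of replicate 2 of the BFP-negative group (0.142) or of either BFP-positive library (0.285 and 0.075) did so.

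**Figure D2:**
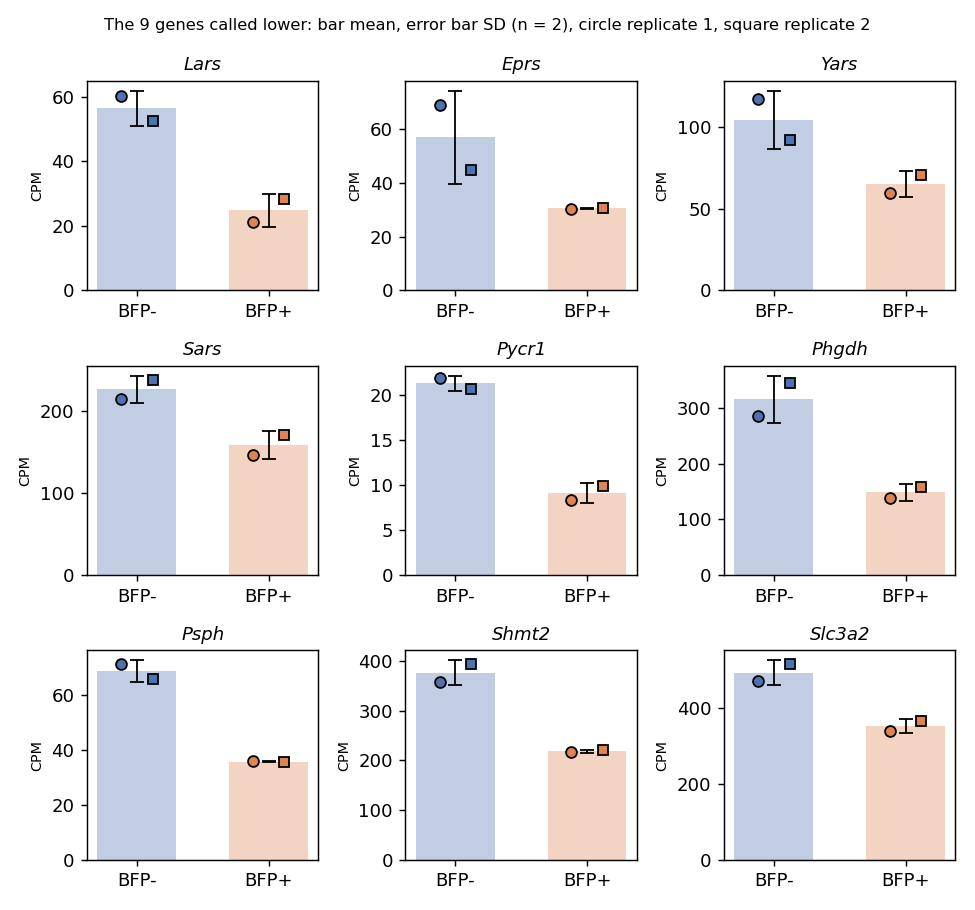
Scaled CPM of the 9 genes called lower, with bars for group means, error bars for the SD (n = 2 libraries per group) and points for the libraries, each panel on its own axis from 0. In each panel both BFP-positive points lie below both BFP-negative points; the BFP-negative replicates of Eprs lie far apart, at 69.3 and 44.9 CPM.

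Among the synthetases without a call, Iars, the isoleucine enzyme, had the largest estimate. Its levels were 55.2 and 59.5 CPM in BFP-negative cells and 22.4 and 41.0 CPM in BFP-positive cells, a log2 fold change of -0.85 (adjusted p = 0.0728). BFP-positive replicate 1 was far below replicate 2. Iars was called lower in 4 of the 9 alternatives that kept all libraries, and when 1 library was left out its estimate ranged from -1.35 to -0.48 with adjusted p-values of up to 0.351.

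Kars, the lysine enzyme, stood at 107 and 106 CPM against 72.8 and 79.0 CPM, with an estimate of -0.49 on the log2 scale (adjusted p = 0.0723). Mars, the methionine enzyme, was at 248 and 295 CPM against 192 and 211 CPM, with an estimate of -0.43 (adjusted p = 0.0791). Wars, the tryptophan enzyme, which interferons are known to induce, was at 75.3 and 78.9 CPM against 58.6 and 53.1 CPM, with an estimate of -0.47 (adjusted p = 0.117). In all 3 genes the groups were apart but the differences missed the threshold.

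Aars, the alanine enzyme, was at 122 and 106 CPM in BFP-negative libraries and at 80.7 and 86.1 CPM in BFP-positive libraries (estimate -0.45, adjusted p = 0.101). Rars, the arginine enzyme, had 82.4 and 84.1 CPM against 62.0 and 66.8 CPM (estimate -0.37, adjusted p = 0.197). Cars, the cysteine enzyme and the least abundant of the 18 per length, had 30.5 and 23.2 CPM against 15.02 and 22.7 CPM (estimate -0.51, adjusted p = 0.329). For Cars the lowest BFP-negative and the highest BFP-positive library nearly met.

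Tars, the threonine enzyme, was at 54.5 and 63.6 CPM against 40.0 and 51.0 CPM, and Hars, the histidine enzyme, at 102 and 78.9 CPM against 78.1 and 72.8 CPM. Nars, the asparagine enzyme, had 284 and 266 CPM against 239 and 238 CPM, and Gars, the glycine enzyme, 160 and 163 CPM against 141 and 154 CPM. Estimates for these 4 lay between -0.38 and -0.13 and none passed the test. The overlapping genes were Dars (aspartate, -0.15), Vars (valine, -0.22) and Qars (glutamine, -0.07); the 95% interval of Qars ran from -0.50 to 0.37, which leaves room for a change in either direction.

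Of the cytosolic synthetases, 8 (Dars, Eprs, Iars, Kars, Lars, Mars, Qars and Rars) are held together in the multisynthetase complex. The complex held 2 of the genes that fell, Lars and Eprs, with a median log2 fold change of -0.46, and the 10 synthetases outside it held the other 2, with a median of -0.41. This grouping was chosen after the values were seen, and a difference between the complex and the other synthetases was not tested. Aimp2, a scaffold of the complex, fell from 179 and 179 CPM to 109 and 111 CPM, or -0.70 on the log2 scale (SE 0.14) at an adjusted p of 0.00915, which became 0.0542 when BFP-positive replicate 1 was dropped. Among the 6 other synthetase subunits and scaffolds Aimp2 was the 1 called, and their median was -0.34; the phenylalanine enzyme's subunits Farsa (-0.24) and Farsb (-0.11) were not called.

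The mitochondrial synthetases are separate genes that serve translation inside mitochondria. None of the 17 passed the test in edgeR, DESeq2 or limma-voom. An unadjusted p under 0.05 in edgeR was found for 3 of the 17, against 24.53% of all tested genes. Of the estimates, 11 were below 0, and the median was -0.08. Ears2, the mitochondrial glutamate enzyme, had the smallest p of the list, with 24.4 and 25.3 CPM against 13.7 and 17.9 CPM (estimate -0.65, adjusted p = 0.17). The difference between cytosolic and mitochondrial synthetases was not tested.

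Within the cytosolic synthetases, genes with a greater length behind the deposited RPKM tended to have lower estimates. That length is a value per gene and need not equal the length of the transcripts present in these cells. Spearman's rho between the length behind the deposited RPKM and the log2 fold change was -0.56 over the 18 genes, against 0.10 over 16 of the other genes of the set and 0.0068 over 8529 tested genes with at least 50 counts in every library. These are descriptions across genes, which share libraries and are not replicates, and the relation was looked for after the values were seen. The part of length in the synthetase results was not tested.

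**Figure D3:**
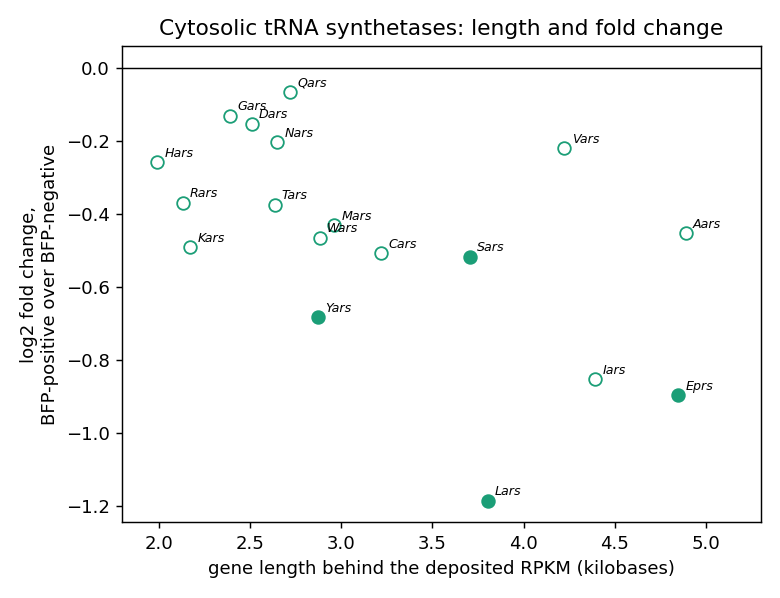
Length per gene in kilobases, as implied by the deposited RPKM values, on the x axis for the 18 cytosolic synthetases. The y axis gives the log2 fold change of BFP-positive over BFP-negative cells, with filled points for an adjusted p under 0.05. Eprs, Iars and Lars lie among the greater lengths with the lowest estimates, whereas Vars and Aars are long with smaller differences.

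The enzymes of amino acid synthesis had the largest fold difference in summed level of the 5 roles, 1.67-fold lower in BFP-positive cells. For all 8, both BFP-negative libraries lay above both BFP-positive libraries, an order found for 27.1% of all tested genes. All 8 estimates were below 0, the median was -0.70, and 4 fell. Their sum was 1129 and 1212 CPM in BFP-negative and 685 and 717 CPM in BFP-positive libraries.

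Phgdh catalyses the first step of serine synthesis from a glycolytic intermediate. It was at 285 and 345 CPM in BFP-negative cells and at 138 and 159 CPM in BFP-positive cells. Every BFP-positive library was below every BFP-negative one, and the log2 fold change of -1.09 (SE 0.15) had an adjusted p of 0.00121. Psat1, the second enzyme, was at 73.4 and 82.5 CPM against 45.0 and 56.3 CPM, and its estimate of -0.62 missed the threshold (adjusted p = 0.0616). Psph, which releases serine in the last step, fell from 71.3 and 65.6 CPM to 35.7 and 35.4 CPM, which is -0.94 on the log2 scale (SE 0.18) at an adjusted p of 0.00863.

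Shmt2 and Mthfd2 act in the mitochondrial folate pathway, where serine gives its one-carbon unit. Shmt2 fell from 359 and 395 CPM to 217 and 221 CPM, with little spread within groups; its log2 fold change of -0.79 (SE 0.12) had an adjusted p of 0.00308. Mthfd2 was at 156 and 159 CPM against 132 and 129 CPM, and its smaller estimate of -0.27 was not called (adjusted p = 0.268). The 5 serine and folate genes of the set together were 1.71-fold lower, with 945 and 1047 CPM against 567 and 600 CPM. Of 10 tested serine, glycine and folate genes outside the set, 2 fell, Sfxn1, a mitochondrial serine carrier (194 and 168 CPM against 109 and 103 CPM, -0.77, adjusted p = 0.0081), and Mat2a, which makes S-adenosylmethionine (486 and 451 CPM against 337 and 314 CPM, -0.53, adjusted p = 0.0197). The call of Mat2a was lost in 3 of the 4 fits that left out a library. None of the 10 rose, 7 estimates were below 0 and the median was -0.47.

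Pycr1 makes proline from the intermediate that Aldh18a1 supplies. Pycr1 fell from 21.9 and 20.7 CPM to 8.33 and 9.88 CPM, at -1.23 the largest log2 estimate of the 36 genes (SE 0.30, adjusted p = 0.0281). Its counts were low, and the adjusted p was 0.0614 with replicate 1 of the BFP-negative group left out and 0.111 or 0.0502 with replicate 1 or 2 of the BFP-positive group left out. Aldh18a1 was at 123 and 115 CPM against 86.5 and 84.0 CPM, with an estimate of -0.48 (adjusted p = 0.0689). Asns, which makes asparagine, was at 38.6 and 29.9 CPM against 23.0 and 23.1 CPM, with an estimate of -0.57 (adjusted p = 0.166).

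**Figure D4:**
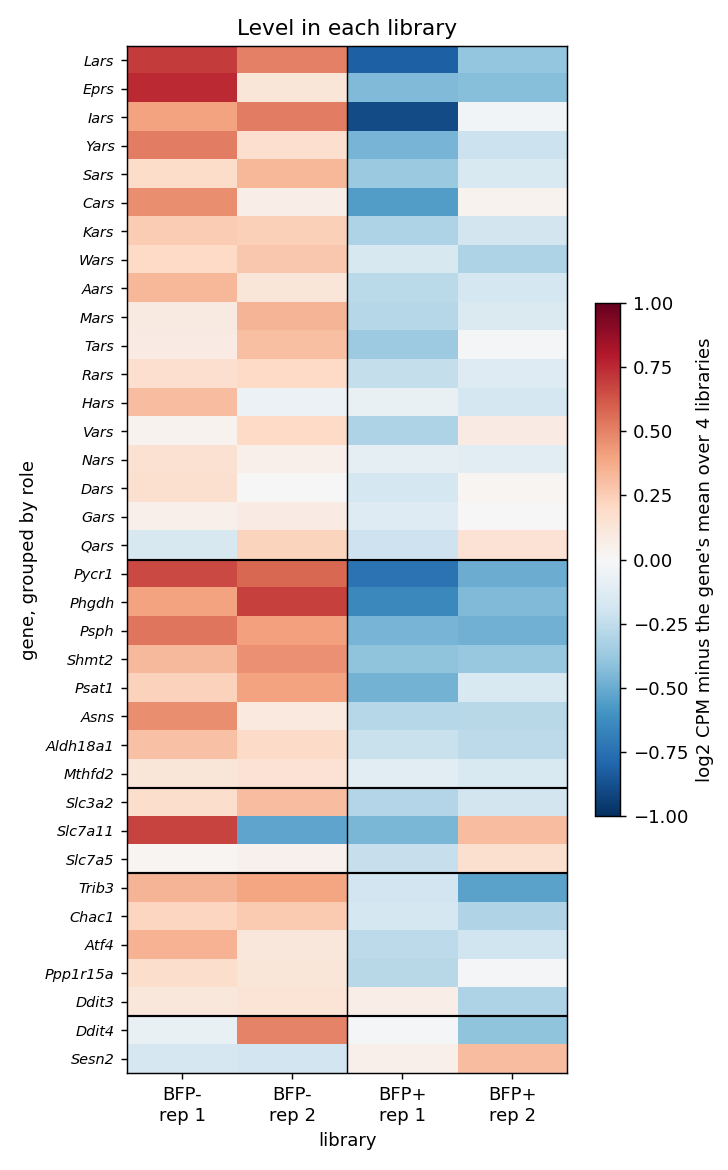
Log2 CPM of each gene (rows, by role) in each of the 4 libraries (columns), as the difference from the gene's mean over the libraries, red above and blue below. The enzyme block is red in both BFP-negative and blue in both BFP-positive libraries. The groups overlap for Dars, Qars, Vars, Slc7a11, Slc7a5 and Ddit4, and Sesn2 shows the opposite division.

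Slc3a2 is the heavy chain that carries both Slc7a5 and Slc7a11 to the cell surface. It fell from 470 and 515 CPM to 339 and 366 CPM, which is -0.48 on the log2 scale (SE 0.12) at an adjusted p of 0.0294. The fits that left out replicate 2 of the BFP-negative group (0.107) or a BFP-positive library (0.207 and 0.103) did not call it. Slc7a5, the light chain that imports large neutral amino acids such as leucine, was at 264 and 267 CPM against 222 and 291 CPM. Its groups overlapped, with an estimate of -0.05 and a 95% interval from -0.38 to 0.28. Slc7a11, the light chain that imports cystine, was sparse at 4.90 and 2.13 CPM against 2.23 and 3.79 CPM, so its interval of -1.76 to 1.32 bounds little.

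Atf4 itself was at 82.6 and 70.4 CPM in BFP-negative cells and at 54.1 and 56.8 CPM in BFP-positive cells. The groups stood apart, and the estimate of -0.46 did not pass the test (SE 0.18, adjusted p = 0.129). Trib3, a pseudokinase that Atf4 and Ddit3 induce, was at 11.01 and 11.4 CPM against 7.64 and 6.01 CPM (estimate -0.72, adjusted p = 0.282). Chac1, which degrades glutathione, was at 13.9 and 14.3 CPM against 10.6 and 9.71 CPM (estimate -0.48, adjusted p = 0.419).

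Ddit3, the stress factor also called Chop, was at 21.4 and 21.8 CPM in BFP-negative libraries and at 20.7 and 16.0 CPM in BFP-positive libraries (estimate -0.24, adjusted p = 0.664). Ppp1r15a, the regulatory subunit that directs dephosphorylation of eIF2, was at 12.7 and 12.2 CPM against 9.27 and 11.1 CPM (estimate -0.29, adjusted p = 0.667). None of these 5 genes was called by edgeR, DESeq2 or limma-voom. In edgeR 1 of them, Atf4, had an unadjusted p under 0.05, as did 24.53% of all tested genes.

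The mTORC1 inhibitors had estimates of opposite sign. Sesn2, a leucine sensor, was at 38.1 and 37.6 CPM in BFP-negative cells and at 44.5 and 53.0 CPM in BFP-positive cells. It was the 1 gene of the set with an estimate above 0 (0.37, adjusted p = 0.297), and it was not called. Ddit4 was sparse at 3.29 and 4.89 CPM against 3.43 and 2.63 CPM, with overlapping groups and an estimate of -0.43 (adjusted p = 0.731). Among 19 tested mTORC1 regulators outside the set 1 rose and 1 fell, with a median of 0.12; Sesn1, the relative of Sesn2, fell from 82.0 and 50.3 CPM to 37.2 and 31.0 CPM, or -0.96 on the log2 scale (adjusted p = 0.0348). That call ended on omission of replicate 1 of the BFP-negative group (0.219) or replicate 2 of the BFP-positive group (0.105). The gene that rose was Castor2 (Gatsl2 in the table), an arginine sensor family member, from 3.86 and 1.42 CPM to 21.4 and 24.2 CPM (log2 fold change 3.11, adjusted p = 0.00217).

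Levels of different genes can be compared only per length, for which the deposited log2 RPKM values were used. Averaged over the 4 libraries, Slc3a2 was the most abundant of the 36 genes at a log2 RPKM of 7.14, above 92.3% of tested genes. Shmt2 (6.96), Phgdh (6.85), Vars (6.60) and Nars (6.59) followed. In BFP-negative cells Slc3a2 (7.41 ± 0.07, SD, n = 2), Shmt2 (7.38 ± 0.07) and Phgdh (7.42 ± 0.17) did not differ beyond their spread. In BFP-positive cells Slc3a2 stood highest (6.86 ± 0.07), followed by Shmt2 (6.53 ± 0.01) and Phgdh (6.27 ± 0.13). Atf4 was in the middle range at a log2 RPKM of 5.24. At the low end were Ddit4 (1.05) and Slc7a11 (-1.58), so the cystine import chain was far less abundant per length than its partner Slc3a2.

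Upstream of Atf4, 16 genes for eIF2 kinases, eIF2 subunits, its exchange factor and phosphatase were tested. None was called by edgeR or limma-voom, DESeq2 called 1 lower, and the median log2 fold change was -0.09. An unadjusted p under 0.05 in edgeR was found for 2 of the 16, against 24.53% of all tested genes. Eif2ak4, the kinase that senses uncharged tRNA, was at 1.77 and 2.84 CPM against 7.38 and 4.36 CPM (estimate 1.35, adjusted p = 0.21), a low level in every library. Eif2ak3, the kinase of the endoplasmic reticulum, had an estimate of -0.17 (adjusted p = 0.792). Eif2s1, the subunit that is phosphorylated, was at 194 and 174 CPM against 140 and 128 CPM (estimate -0.46, adjusted p = 0.0667).

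Of 16 tested transcription factors that pair with Atf4 or are related to it, 4 rose (Jun, Junb, Cebpd and Nupr1), 1 fell (Jdp2) and the median was -0.02. Jun, an AP-1 subunit, rose from 52.2 and 41.3 CPM to 143 and 143 CPM, or by 1.61 on the log2 scale (SE 0.17, adjusted p = 0.0003). Cebpd rose from 63.3 and 61.0 CPM to 133 and 137 CPM, or by 1.12 on the log2 scale (SE 0.15, adjusted p = 0.00122). Nupr1 rested on 0 and 0 counts, where 0 allows up to 3 in each library, against 21 and 11 counts, and it was not called in the 3 fits without 1 library that tested it. Jdp2, a repressor of the AP-1 family, fell from 102 and 98.1 CPM to 55.1 and 50.7 CPM (log2 fold change -0.92, adjusted p = 0.00588). Cebpb, Atf3 and Atf5 were not called, with estimates of -0.00, -0.46 and 0.11; that of Cebpb lay so close to 0 that its sign changed with the scaling.

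A further 32 genes described as Atf4 targets lie outside the set, of which 24 were tested and 5, among them Fgf21, had no count in any library. Of the 24, 1 fell and none rose, 19 estimates were below 0 and the median was -0.45. The gene that fell was Slc7a3, a transporter of arginine and lysine, from 95.2 and 113 CPM to 35.2 and 47.6 CPM, or -1.33 on the log2 scale (SE 0.20, adjusted p = 0.0022). Its relative Slc7a1 was at 54.0 and 49.8 CPM against 27.4 and 35.8 CPM (estimate -0.72, adjusted p = 0.0588). Eif4ebp1, a translation repressor, had an estimate of -0.38 (adjusted p = 0.181).

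The other branches of the unfolded protein response act through Xbp1 and Atf6 on chaperones of the endoplasmic reticulum. Of 24 such genes 11 fell, none rose, all 24 estimates were below 0 and the median was -0.57. Hspa5, the main chaperone, fell from 1688 and 1494 CPM to 1049 and 885 CPM (log2 fold change -0.72, adjusted p = 0.00473), and Xbp1 from 2561 and 2517 CPM to 1751 and 1578 CPM (-0.61, adjusted p = 0.00479). Pdia4, a disulfide isomerase, fell from 676 and 688 CPM to 388 and 393 CPM (-0.80, adjusted p = 0.00148). On omission of BFP-positive replicate 2 the count was 7 and Xbp1 was not called (0.0593). Lower estimates were therefore seen in this list as well as in the 36 genes, and a difference between the lists was not tested. Of 11 Nrf2 targets 1 rose (Taldo1) and 1 fell (Gsr, not called in 3 of the 4 fits that left out a library), with a median of -0.22, and of 15 genes of the interferon-gamma type 6 rose, among them Gbp2 and Irf1, with a median of 0.44; without BFP-positive replicate 1 it was 3.

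**Figure D5:**
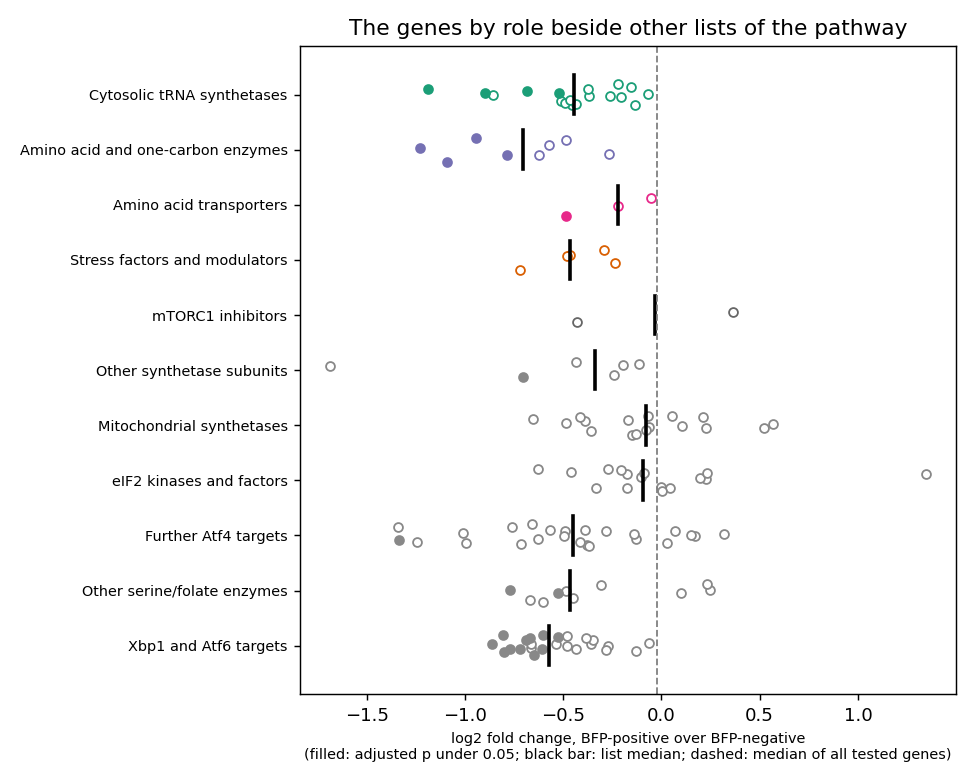
Log2 fold changes of BFP-positive over BFP-negative cells for the 36 genes by role (coloured) and for other lists of the pathway (grey), with a black bar for each list's median and a dashed line at the median of all tested genes, -0.02. Medians of the synthetases (-0.44), the enzymes (-0.70) and the Xbp1 and Atf6 targets (-0.57) lie left of the dashed line, and that of the mitochondrial synthetases (-0.08) lies close to it.

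Libraries held 11868254 to 12570117 counts, so the values of the 36 genes rest on at least 26 counts in each library, the lowest being Slc7a11. Cxcl10, the gene the reporter follows, rose by 3.85 on the log2 scale (0.241 and 1.498 CPM against 12.8 and 12.7 CPM, adjusted p = 0.00557). All 13 pDC markers were detected in every library, with sums of 24956 and 29714 CPM against 21434 and 20551 CPM. Of these sums, Ly6d alone made up 17290 and 20950 CPM against 13610 and 12570 CPM. Among the 13, 3 rose (Siglech, Irf7 and Runx2) and 3 fell (Ccr9, Cox6a2 and Ly6d). Not all of the rises were called without BFP-positive replicate 2. Markers of B and plasma cells, which are also rich in secretory genes, fell in 5 of 9 tested cases and rose in none, with sums of 2954 and 3125 CPM against 2378 and 2303 CPM. Monocyte and macrophage markers had sums of 652 and 786 CPM against 1392 and 1541 CPM, with C1qa and Mertk at 0 in all libraries. Of the 10 tested, 6 rose (Csf1r, Cd14, Lyz2, Fcgr1, Ccr2 and Ly6c2) and 2 fell (Adgre1 and Apoe). Csf1r stood at 0.241 and 0 CPM against 22.7 and 32.8 CPM, and Cd14 at 9.80 and 10.3 CPM against 99.4 and 95.9 CPM. Adgre1 stood at 24.8 and 35.5 CPM against 6.69 and 10.2 CPM. Conventional DC markers had a median log2 fold change of 1.00, with 15 of 16 estimates above 0 and both BFP-positive libraries above both others for 14; 6 rose and 1, Cd8a, fell (not called in 3 of the 4 fits that left out a library). Over all tested genes, 27.1% had both BFP-positive libraries above both BFP-negative ones. The conventional DC markers summed to 2339 to 2376 CPM against 2310 to 2514 CPM. Of these sums, Cd8a made up 1495 and 1428 CPM against 1043 and 1107 CPM. The sums of dividing-cell genes (7 of 14 rose, none fell) were 867 and 1016 CPM against 1227 and 1268 CPM. No T and NK cell or neutrophil marker was called by edgeR, DESeq2 or limma-voom (4 tested in each list). In edgeR 2 and 0 of them had an unadjusted p under 0.05, against 24.53% of all tested genes. T and NK cell markers summed to 27.1 to 42.7 CPM against 20.3 to 29.1 CPM. Neutrophil markers summed to 16.2 to 19.9 CPM against 13.0 to 28.0 CPM. Cd3g, Eomes, Gzma, Elane and Retnlg were at 0 throughout. The part of these other cells in the results for the 36 genes was not tested, and in sorted bulk samples fewer cells of a type and less RNA per cell cannot be told apart.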

How the data were processed

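Sorted pDCs were profiled by RNA-seq with the SMART-Seq v4 kit, per the labels' protocols; it amplifies by PCR and marks neither strand nor molecules. The authors deposited raw counts per gene and log2 RPKM values (log2 scale, per gene length and library total). Subread, featureCounts and limma with GRCm38/mm10 stand in the submitters' processing notes; versions, strand settings and multiply matching reads are not given in the sources used here. Gene models of 8 of the 36 genes overlap another coding gene (Mars and Ddit3 share 71 bases), so their shared reads are uncertain.

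Counts were tested in R 4.3.3 with edgeR 4.0.16 (filterByExpr, minimum count 10 and total 15; TMM; group as the only term; quasi-likelihood, two-sided; Benjamini-Hochberg over 11706 genes; 2 residual degrees of freedom, biological coefficient of variation 24.7%). The procedure was run on counts simulated from the model that edgeR itself assumes, with dispersions fitted to these libraries. Such a run cannot show how the procedure does on data that depart from that model. The SE is the log2 fold change divided by the square root of F. Count floors cover counting error only, since PCR copies are not independent molecules. Alternatives were DESeq2 1.42.0, limma-voom (limma 3.58.1), other scalings and filters, robust dispersion, log2 RPKM in limma, a replicate block and omission of each library.

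The members, 22 gene lists and tests were chosen with earlier results of these data known. Genes are named if they belong to the set, have 1 of the 4 smallest p-values of an outside list, or are textbook counterparts of members. Nupr1, undetected genes and further marker genes were added after their values were seen. Whether genes without a promoter entry carry the element is not analysed here.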

Additional observations from a re-analysis of the deposited data

How the results depend on the processing

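Across the 13 alternatives the median log2 fold change of the 36 genes stayed between -0.53 and -0.43. The number called lower was 9 with DESeq2 size factors in edgeR, without a filter and with robust dispersion, 13 with library totals and with the stricter filter, 12 in DESeq2, 10 in limma-voom and 6 in limma on log2 RPKM, and it ranged from 4 to 7 when 1 library was left out (4 without BFP-positive replicate 1, 5 without replicate 2). In those fits the lone library of a group is assumed to vary like the other group. Same-numbered libraries deviated together with a correlation of only 0.0594, and the titles give them a shared code whose meaning is not stated, so whether the numbers pair the libraries is not known; with the replicate block 14 of the 36 genes and 760 of all genes were lower. Over all genes, omission of 1 library gave 245 to 408 lower and 559 to 921 higher. Estimates close to 0 or from low counts changed sign. In fits that left out 1 library the log2 fold change ranged from -0.25 to 0.16 for Qars, from -0.68 to 0.50 for Slc7a11, from -0.26 to 0.13 for Slc7a5, from -0.21 to 0.37 for Atf5, from -0.0513 to 0.0749 for Cebpb, from -0.32 to 0.016 for Eif2ak3 and from -0.28 to 0.047 for Farsb. Cebpb was at 0.0077 with DESeq2 size factors, 0.0029 without a filter and 0.0082 in DESeq2; for these changes the cause was not tested. The promoter count was 7 of 28 genes for TGATGCAA (0.895% of all promoters) and 12 of 28 for TGATGNA (12.2%). Depth limited Slc7a11 and Ddit4 most: their counts per library were 26 to 62, and their 95% intervals reached from falls to rises.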
